A study of Homo sapiens with 4 samples.

Results

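BRD8 occupancy was examined at 8 receptor tyrosine kinase genes, MET, EGFR, ERBB2, ERBB3, IGF1R, INSR, EPHA2 and AXL, out of 19970 protein-coding genes on chromosomes 1 to 22 and X. BRD8 is a bromodomain protein of TIP60/NuA4, a complex that acetylates histones and remodels nucleosomes near transcription starts. The data are chromatin immunoprecipitation sequencing (ChIP-seq) peak lists from the human colorectal carcinoma lines HCT116 and SW480, which were unmodified and untreated as far as the labels say. Each line had 1 BRD8 ChIP library, precipitated with 2 µg of a polyclonal antibody, and 1 input library that was not analysed here. A peak is a region where the ChIP signal exceeded the local background, and its summit is the position of highest signal. A peak was given to a gene when its summit lay between the gene ends or within 1 kb of either end. The 8 genes were selected on their BRD8 peak counts and folds in these lists, and each line has 1 ChIP library, so counts and levels are a description of these libraries and no difference between the lines was tested. The HCT116 list held 22303 peaks and the SW480 list 12874, and the lists give no read totals.

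Receptor tyrosine kinases sit in the cell membrane, bind a secreted or membrane-bound ligand outside the cell and phosphorylate themselves and adaptor proteins inside it. The adaptors then switch on RAS, MAP kinase and phosphatidylinositol 3-kinase signalling, which drives growth, survival and movement of epithelial cells. MET is the receptor for hepatocyte growth factor. EGFR, ERBB2 and ERBB3 belong to the family of receptors for epidermal growth factor and neuregulins. IGF1R and INSR bind insulin-like growth factors and insulin, EPHA2 binds ephrins on neighbouring cells, and AXL binds GAS6. EGFR is a drug target in colorectal cancer, and ERBB2 and MET amplification occur in some of these tumours.

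The DNA before the transcription start of a gene is where regulators of initiation gather, so the starts under a BRD8 peak are shown beside starts that had none. RefSeq starts were matched for 7 of the 8 genes (GRCh38.p14), and ERBB3 had no entry. The windows run over the 250 bases before each start, 5′ to 3′ on the strand of the gene, and capitals mark the motif matches that are named after the sequences.
MET, all bases under the HCT116 peak and none under a SW480 peak (chr7:116671946-116672195, plus strand): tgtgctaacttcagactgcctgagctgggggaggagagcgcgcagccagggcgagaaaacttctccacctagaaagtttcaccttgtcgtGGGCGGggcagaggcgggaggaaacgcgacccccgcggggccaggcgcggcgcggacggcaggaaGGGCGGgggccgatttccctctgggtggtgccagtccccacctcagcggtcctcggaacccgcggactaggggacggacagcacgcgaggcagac
INSR, 173 bases under the HCT116 peak and 22 under the SW480 peak (chr19:7294415-7294664, minus strand): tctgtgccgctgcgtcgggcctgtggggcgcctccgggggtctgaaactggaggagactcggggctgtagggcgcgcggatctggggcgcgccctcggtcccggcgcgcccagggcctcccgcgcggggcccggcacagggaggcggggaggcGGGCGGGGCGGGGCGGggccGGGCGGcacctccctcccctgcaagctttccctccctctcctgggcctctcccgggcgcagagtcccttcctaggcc
EPHA2, all bases under the HCT116 peak and none under a SW480 peak (chr1:16156070-16156319, minus strand): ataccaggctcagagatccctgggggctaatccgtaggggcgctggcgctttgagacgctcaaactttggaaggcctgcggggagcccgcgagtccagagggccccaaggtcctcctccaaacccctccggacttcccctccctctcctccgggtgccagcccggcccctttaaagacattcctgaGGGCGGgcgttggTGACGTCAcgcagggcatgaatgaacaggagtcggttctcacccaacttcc
AXL, the more downstream of its 2 starts, all bases under the HCT116 peak and none under a SW480 peak (chr19:41226505-41226754, plus strand): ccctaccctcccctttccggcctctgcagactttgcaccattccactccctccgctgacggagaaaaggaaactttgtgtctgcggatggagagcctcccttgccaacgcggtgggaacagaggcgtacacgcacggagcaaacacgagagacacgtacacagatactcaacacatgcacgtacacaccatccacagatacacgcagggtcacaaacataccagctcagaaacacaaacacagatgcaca
IGF1R, under no peak in either line (chr15:98648289-98648538, plus strand): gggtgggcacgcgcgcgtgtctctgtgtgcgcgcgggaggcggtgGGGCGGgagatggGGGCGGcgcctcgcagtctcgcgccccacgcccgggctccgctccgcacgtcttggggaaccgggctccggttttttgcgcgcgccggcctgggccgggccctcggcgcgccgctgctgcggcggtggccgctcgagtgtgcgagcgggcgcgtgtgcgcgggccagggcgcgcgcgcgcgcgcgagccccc
EGFR, the more upstream of its 2 starts, under no peak in either line (chr7:55018767-55019016, plus strand): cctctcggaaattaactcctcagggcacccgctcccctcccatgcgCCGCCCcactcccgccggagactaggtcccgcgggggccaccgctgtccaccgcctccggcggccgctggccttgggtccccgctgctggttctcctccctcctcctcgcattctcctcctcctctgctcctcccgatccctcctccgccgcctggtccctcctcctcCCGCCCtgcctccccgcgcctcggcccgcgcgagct
ERBB2, the 30 bases next to the start, under a peak in both lines (chr17:39688064-39688093, plus strand): tccaCTTCCGGagtaaCCGGAAGttcctgt

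The GC contents of starts with and without a peak overlapped. The capitals are the GC box GGGCGG, or CCGCCC where it lies on the other strand, in MET (2 matches), INSR (4, of which 3 overlap by 1 base), EPHA2 (1), IGF1R (2) and EGFR (2). In EPHA2 the second capital run is the cyclic AMP response element TGACGTCA, and in ERBB2 the capitals are a pair of inverted ETS motifs, CCGGAAG. Each motif was searched on both strands. Of 34961 windows of this length before RefSeq starts, 42.7% held the GC box, 8.52% the ETS motif and 1.65% the TGACGTCA element. A further 6 motifs had no match in the 6 whole windows printed, but the downstream EGFR start, under no peak, held 2 AP-1 matches and the whole ERBB2 window 1 CCAAT box. The upstream AXL start, not printed and under no peak in either line, held 2 GC boxes at a GC content of 64.4%. The printed downstream AXL start, under the HCT116 peak, held no GC box. Of all windows, 6.35% held the E-box CACGTG, 4.17% the AP-1 motif TGACTCA and 31.97% the CCAAT box read as ATTGG. The NRF1 motif GCATGCGC was in 2.64%, the YY1 motif AAGATGGCG in 0.655% and the TCF motif CTTTGAA in 3.81%. GC content was 68.4% in MET, 78.4% in INSR, 63.2% in EPHA2 and 54.4% at the downstream AXL start. It was 81.2% in IGF1R and 73.6% in EGFR, which had no peak there, and the median of all windows was 58.4%. The IGF1R window held 48 CpG dinucleotides, the most of any window here, against 24 in MET and a median of 11.

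BRD8 peaks were found at all 8 receptor genes in HCT116 and at 7 in SW480, where EPHA2 had none. Of all protein-coding genes, 52.3% had such a peak in HCT116 and 29.8% in SW480. Both lines had one at 7 of the 8 genes, beside 26.7% of all protein-coding genes. The genes were chosen by these counts, so nothing is read from that difference. The 8 genes held 48 peaks in HCT116 and 20 in SW480. MET alone held 25 of the HCT116 peaks and 1 of the SW480 peaks. The other 7 genes held 23 peaks in HCT116 and 19 in SW480. With the HCT116 list cut by q to 12874 peaks, the number in the whole SW480 list, the 8 genes held 20 in each line. With a −log10 q of at least 5 they held 19 in HCT116 and 9 in SW480. Peaks away from the gene ends made up 40 of the 48 in HCT116 and 15 of the 20 in SW480. MET, with 1 gene-end peak among its 25, supplied most of those in HCT116. The AXL peaks close to its downstream start are counted among them in both lines. This share was not counted over the whole lists, so it is not read as a trait of the 8 genes.

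**Figure D1:**
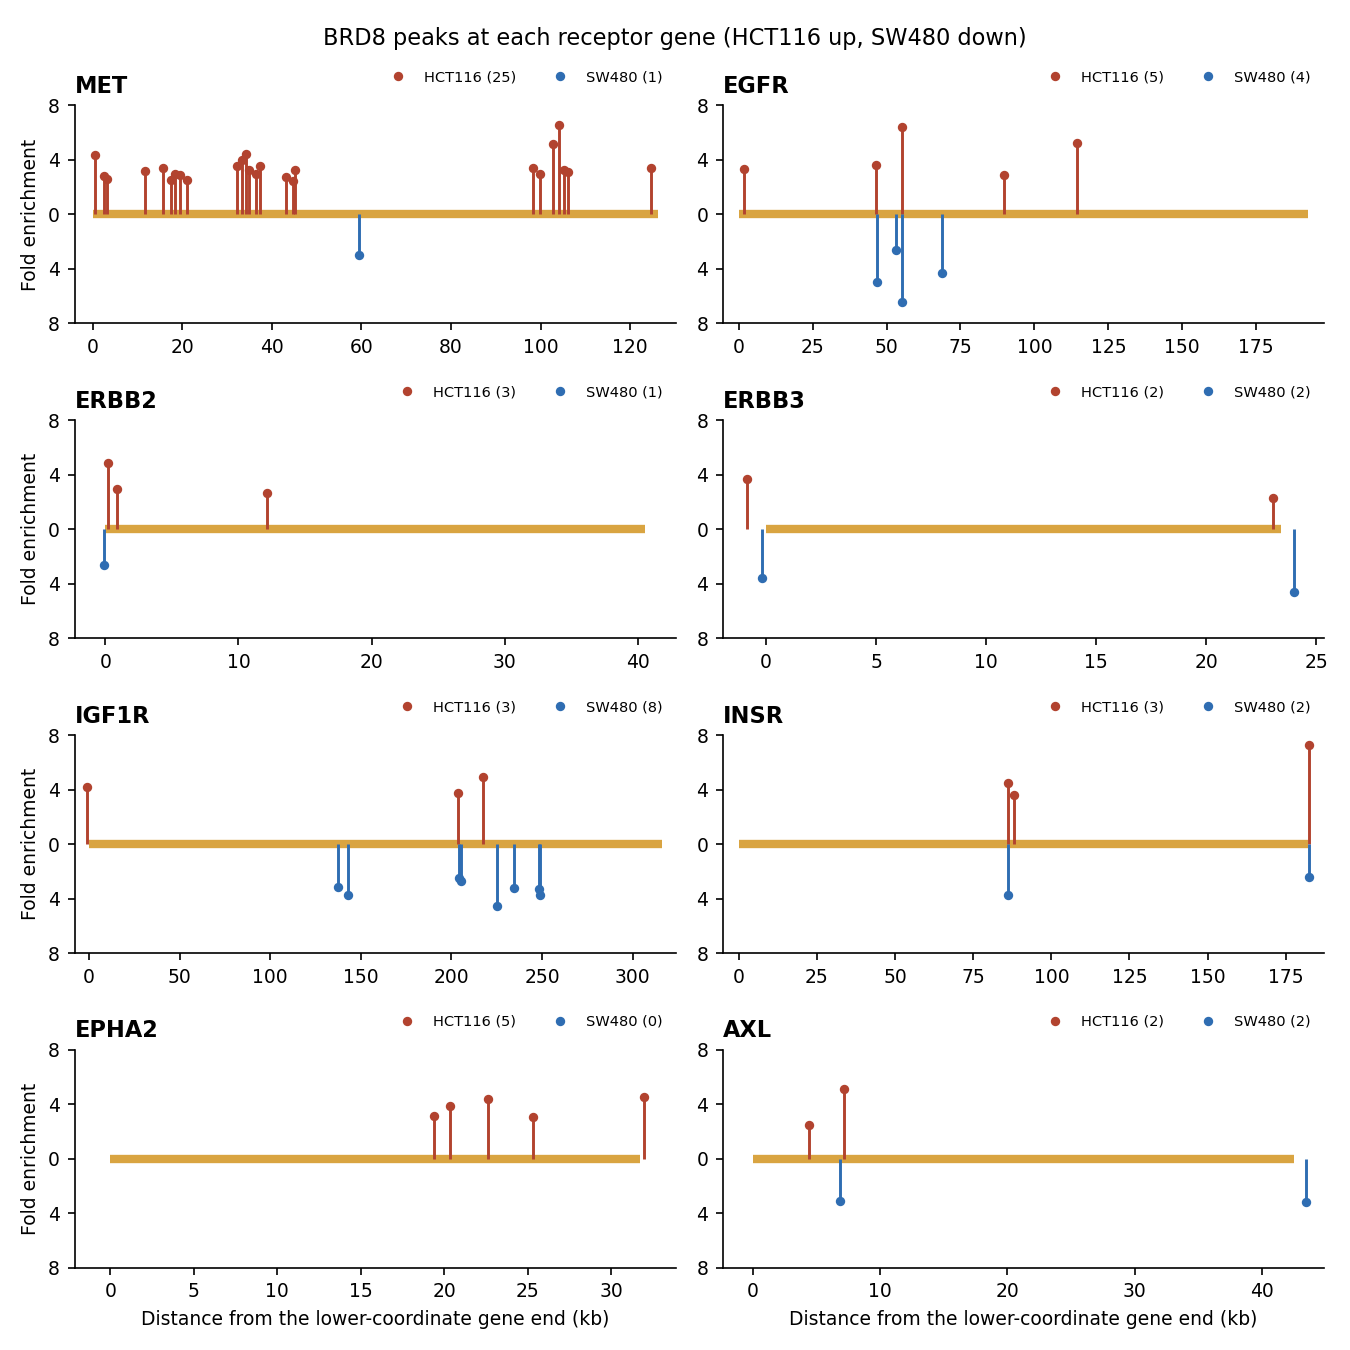
Each panel shows a receptor gene as a gold bar, with the distance of each BRD8 summit from the gene's lower-coordinate end on the x axis (kb) and the deposited fold enrichment on the y axis, HCT116 upward and SW480 downward; numbers in the legends are peaks. MET carries 25 HCT116 peaks and 1 SW480 peak, IGF1R 3 in HCT116 and 8 in SW480, and EPHA2 5 in HCT116 and 0 in SW480.

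MET was the receptor gene with the most BRD8 peaks in HCT116. MET lies on chromosome 7 (116672196 to 116798377, GRCh38) on the plus strand and is 126 kb long. Its 25 HCT116 peaks amount to 19.5 per 100 kb, and its single SW480 peak to 0.780 per 100 kb. Protein-coding genes of 100 to 300 kb averaged 0.875 peaks per 100 kb in HCT116 and 0.551 in SW480. Across all protein-coding genes, 11 had more HCT116 peaks than MET. Among the 13 genes with at least 25, MET was the shortest, and the next shortest was VMP1 with 26 HCT116 and 12 SW480 peaks over 135 kb. More peaks in HCT116 than in SW480 were found at 35.6% of protein-coding genes, and the excess of 24 at MET was exceeded at 9 of 19970 genes. PCDH7, with 113 HCT116 peaks and no SW480 peak, had the largest excess.

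The MET peaks were weak to moderate and fell into separate groups along the gene. Their folds ran from 2.48 to 6.53 with a median of 3.24, below the list median of 3.70. The −log10 q, where q is the p-value adjusted over the genome, ran from 1.35 to 14.3 with a median of 3.04. It was above the list median of 5.54 at 4 of the 25 peaks. With summits at most 5 kb apart counted as neighbours, a distance chosen after the positions were seen, the peaks formed 6 groups. The first held 3 peaks from 0.517 to 3.22 kb downstream of the start, and the second 6 peaks from 11.7 to 20.99 kb. The third held 6 peaks from 32.1 to 37.3 kb, and the fourth 3 peaks from 43.2 to 45.1 kb. A stretch of 53.3 kb without a HCT116 peak followed. The fifth group held 6 peaks from 98.4 to 106.04 kb, and a single peak lay at 124.6 kb, 1617 bp before the upper end. The lone SW480 peak, with a fold of 2.95 at a −log10 q of 1.82, lay 59.4 kb from the start, inside the stretch without HCT116 peaks. None of the 25 HCT116 peaks overlapped a SW480 peak.

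The widest MET peak covered its start. This HCT116 peak spanned 3634 bp (116670553 to 116674186), against a list median of 596 bp, and its summit lay 517 bp downstream of the start whose upstream bases are printed above. Its fold was 4.37, its −log10 q 10.8 and its summit pileup, the number of overlapping fragments, 36 over a local background of 7.46. The strongest MET peak by q lay 104 kb into the gene (116776030 to 116776512), with a fold of 6.53, a −log10 q of 14.3 and a pileup of 30 over 3.75. Its neighbour at 102.7 kb had a fold of 5.18 and a pileup of 25. The long noncoding RNA gene COMETT (116563594 to 116688027) overlaps the 5′ part of MET, and 5 of the 25 summits lay inside both genes, so those peaks belong to either by position.

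The low level of the MET peaks bears on the count. At 8 of the 25 the background was the lowest of the HCT116 list, 3.75, as at 11.1% of all HCT116 peaks, and MACS2, the peak caller, takes a genome-wide level as its minimum. The lowest background of the SW480 list was 4.09. Pileups at the 25 peaks ran from 12 to 36, with a median of 18, and 24 of them reached 13, the lowest pileup in the SW480 list. With the HCT116 list cut by q to the 12874 peaks of the SW480 list, MET kept 6 HCT116 peaks and 1 SW480 peak. The SW480 list stayed whole, so HCT116 peaks then had to pass a stricter q than SW480 peaks. With a −log10 q of at least 2, MET had 23 peaks in HCT116 and 0 in SW480, and with at least 5 it had 5 in HCT116 and 0 in SW480. The lists end at a q of 0.05, so a missing peak does not show missing binding.

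**Figure D2:**
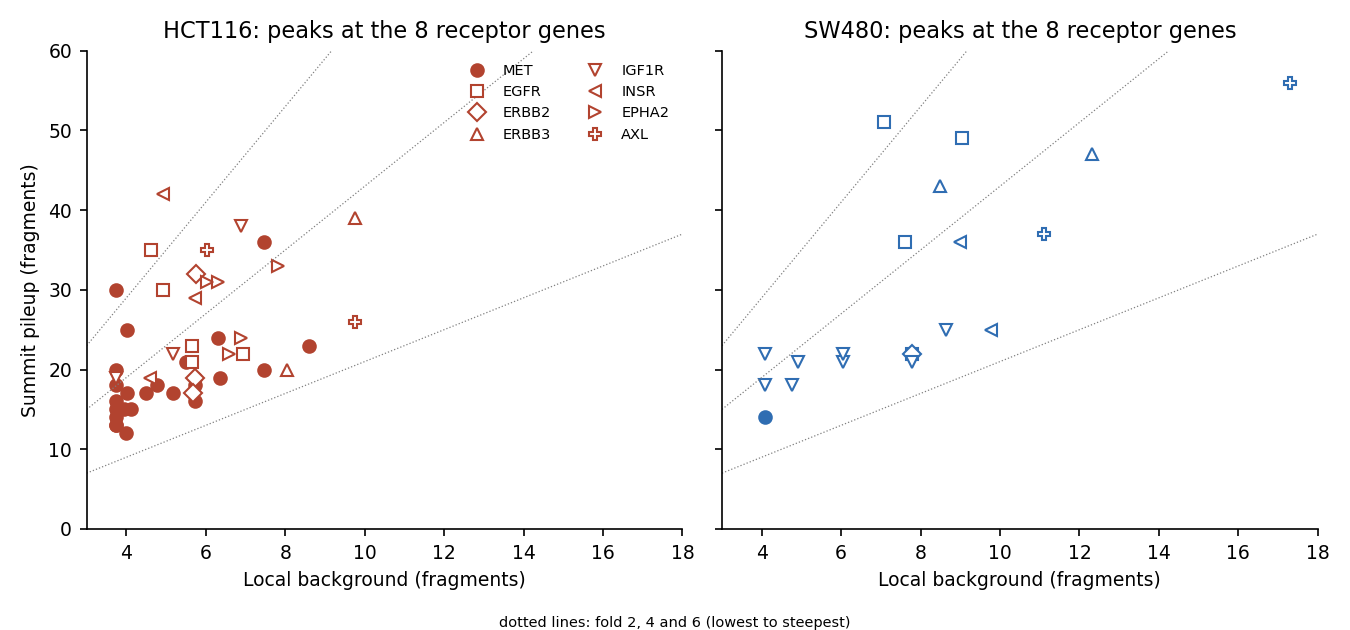
Summit pileup against local background, both in fragments and solved from the deposited fold and p, for each peak at the 8 receptor genes in HCT116 (left) and SW480 (right); filled circles are MET, and dotted lines mark folds of 2, 4 and 6. MET peaks gather at pileups of 12 to 36 over backgrounds of 3.75 to 8.61 in HCT116, and the single SW480 MET peak sits at 14 over 4.09.

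The MET peaks of HCT116 lay in a megabase dense in peaks. In the 1 Mb window of chromosome 7 that holds MET, cut at whole megabases, there were 91 HCT116 peaks and 13 SW480 peaks. Over 3043 windows of 1 Mb, the HCT116 count ranked 2nd, below a window with 100, and the median window held 3. The SW480 count ranked 189th, with a median of 2 and a highest count of 138. The windows on either side held 1 peak each in HCT116 and 1 and 4 in SW480. Chromosome 7 as a whole ran the other way, with 1114 peaks in HCT116, 4.99% of the list, and 1891 in SW480, 14.7% of the list. The window thus held 8.17% of the chromosome's HCT116 peaks and 0.687% of its SW480 peaks. With the HCT116 list alone cut by q to 12874 peaks it held 37 in HCT116 and 13 in SW480. With a −log10 q of at least 5 it held 32 in HCT116 and 8 in SW480.

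Of the genes upstream of MET, some held several HCT116 peaks. CAV2-DT, a long noncoding RNA gene beside CAV2, had 20 HCT116 peaks and 2 SW480 peaks. CAV1, which encodes the main coat protein of caveolae, had 6 HCT116 peaks and no SW480 peak, and its relative CAV2 had 2 in HCT116 and 1 in SW480. COMETT had 11 in HCT116 and 0 in SW480, and TES, which encodes a focal adhesion protein, had 4 in each line. TFEC, farther upstream, had 1 in HCT116 and 0 in SW480. Downstream of MET, CAPZA2, an actin capping protein subunit, had 2 in HCT116 and 0 in SW480, and ST7 had 1 in HCT116 and 2 in SW480. The ST7 end peak also lies at the ends of ST7-AS1 and ST7-OT4. Of the noncoding loci, LOC105375463 had 3 HCT116 peaks and LOC124900233 had 1, and the pseudogenes LOC124901824 and TPM3P1 each had 1 SW480 peak. That of LOC124901824 is the lone SW480 peak of MET, and that of TPM3P1 is also counted at ST7. Outside any gene by the 1 kb rule lay 21 of the 91 HCT116 and 3 of the 13 SW480 peaks.

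The strongest site of the window was shared by the lines. It lies between CAV2 and CAV1, 160 kb upstream of MET (116510614 to 116515203 in HCT116, 116510820 to 116512896 in SW480). Its fold was 11.9 in HCT116 and 12.4 in SW480, its −log10 q 60.7 in HCT116 and 55.03 in SW480, and its pileup 86 in HCT116 and 76 in SW480. The summits were 29 bp apart. Of the window's peaks, 7 of 91 in HCT116 (7.69%, 95% Wilson interval 3.78 to 15.04) and 7 of 13 in SW480 (53.8%, 29.1 to 76.8) overlapped a peak of the other line. Over the whole lists these shares were 24.2% in HCT116 and 49.1% in SW480. The intervals cover counting error only, and neighbouring peaks are not independent. The other shared sites lay at TES (3 sites), in CAV2-DT, at CAV2 and at the end of ST7, and none lay in MET.

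**Figure D3:**
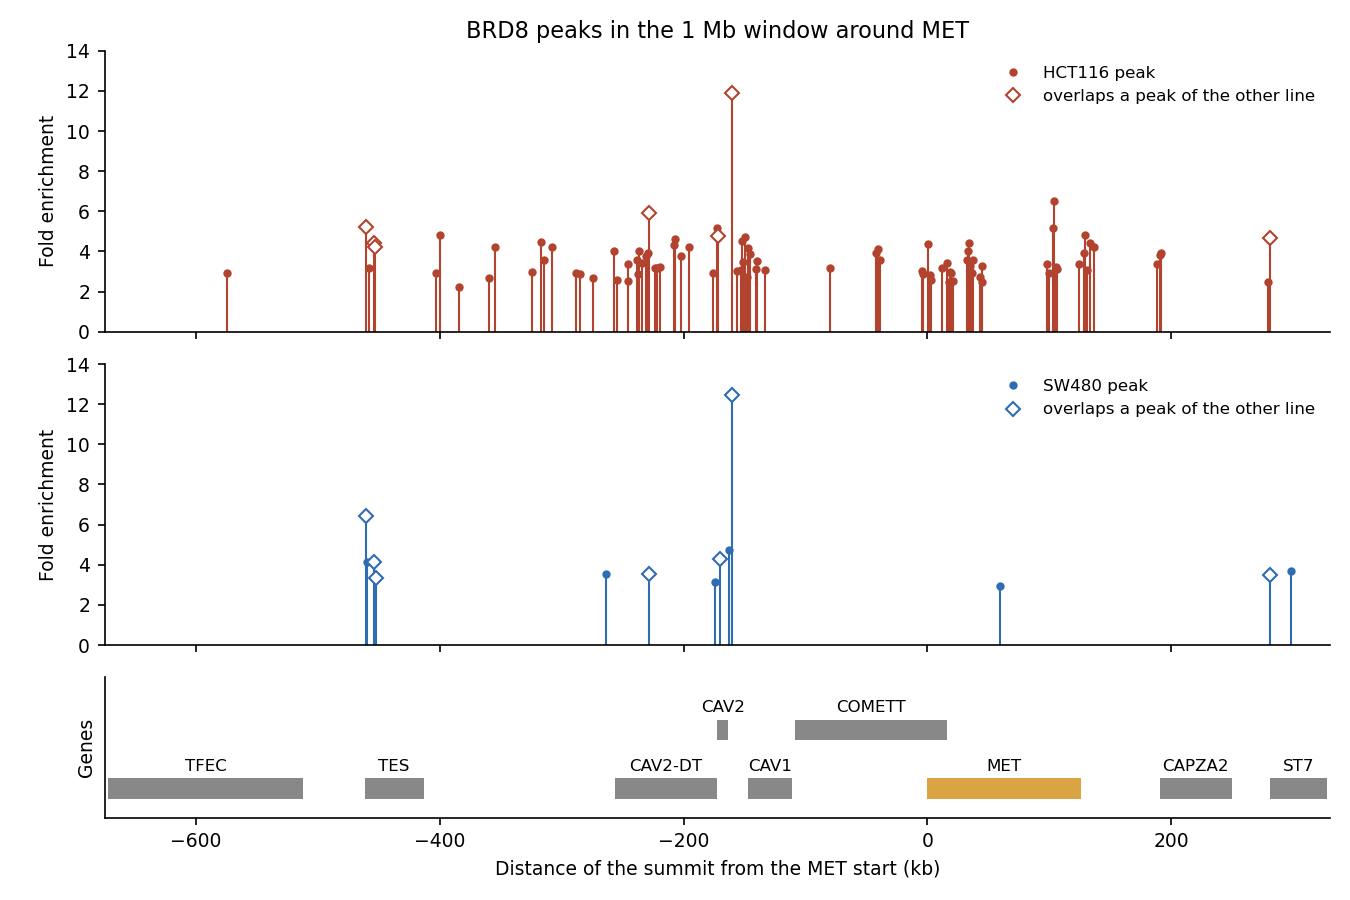
BRD8 peaks in the 1 Mb window, with the distance of each summit from the MET start on the x axis (kb) and the deposited fold enrichment on the y axis, HCT116 above SW480 and selected genes below (TFEC and ST7 cut at the window edge). Open diamonds overlap a peak of the other line; the highest in each line, at folds of 11.9 in HCT116 and 12.4 in SW480, stands 160 kb upstream of MET, and along MET itself 25 HCT116 peaks face 1 SW480 peak.

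The genes of most similar pattern to MET were MPP7, PRKACB and ZBTB20. The measure was the Euclidean distance over 4 values, the log2 of peaks plus 1 and of the highest fold in each line. A gene without a peak in a line took the lowest value of both terms there. The single SW480 peak of MET, at a −log10 q of 1.82, thus sets MET apart from genes without a SW480 peak. MPP7, a cell polarity scaffold, was nearest at a distance of 0.499, with 25 HCT116 peaks and 1 SW480 peak over 284 kb. PRKACB, a catalytic subunit of protein kinase A, had 20 HCT116 peaks and 1 SW480 peak at a distance of 0.602. ZBTB20, a zinc finger transcription factor, had 31 HCT116 and 2 SW480 peaks at 0.714. These are likenesses of counts and highest folds over 1 library per line.

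The strongest BRD8 peak of EGFR lay at the same site inside the gene in both lines. EGFR lies on chromosome 7 (55019017 to 55211628) and had 5 peaks in HCT116 and 4 in SW480, none within 1 kb of a gene end. The HCT116 peak nearest the upstream start lay 1720 bp downstream of it, with a fold of 3.31. At 55.3 kb from the start both lines had a peak, with summits 21 bp apart, folds of 6.39 in HCT116 and 6.43 in SW480, and pileups of 35 over 4.63 in HCT116 and 51 over 7.09 in SW480. At 46.6 kb the folds were 3.61 in HCT116 and 4.98 in SW480, and the pileups 23 in HCT116 and 49 in SW480. The SW480 peak at 55.3 kb had the highest −log10 q at any of the 8 genes, 22.1, against 16.1 for the HCT116 peak there. Chromosome 7 held 14.7% of the SW480 list and 4.99% of the HCT116 list, and pileups were not scaled to depth. Each line also had peaks of its own. In HCT116 these were the peak at 1720 bp, one at 89.7 kb, 1111 bp before the downstream EGFR start, with a fold of 2.89, and one at 114.3 kb with a fold of 5.24. In SW480 they were at 53.4 kb with a fold of 2.62 and at 68.6 kb with a fold of 4.29.

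ERBB2 and ERBB3, the partners of EGFR in receptor dimers, had peaks at their ends in both lines. ERBB2 lies on chromosome 17 (39688094 to 39728658). Its HCT116 start peak (39687405 to 39688631) had a fold of 4.89, a −log10 q of 11.1 and a pileup of 32 over 5.75. The SW480 start peak (39687878 to 39688345) had a fold of 2.62, a −log10 q of 2.27 and a pileup of 22 over 7.80. The start of PGAP3, which processes lipid anchors of membrane proteins, lies within 1 kb of both summits and runs the other way, so signal at the 2 starts cannot be told apart. HCT116 had further ERBB2 peaks 907 bp downstream of the start, at a fold of 2.97, and at 12.1 kb, at 2.69.

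ERBB3, on chromosome 12 (56080108 to 56103505), had 2 peaks in each line. The peaks at its lower end overlapped, with folds of 3.72 in HCT116 and 3.61 in SW480 and pileups of 39 in HCT116 and 47 in SW480, though the summits were 675 bp apart. At its upper end the HCT116 summit lay inside the gene, 370 bp from the end, with a fold of 2.33 at a −log10 q of 1.70. The SW480 summit there lay 604 bp beyond the end, with a fold of 4.64 at a −log10 q of 13.1. PA2G4, which encodes a protein that binds ERBB3, starts within 1 kb of that SW480 summit. Just past the 1 kb limit lay a HCT116 peak 1709 bp beyond ERBB3, with a fold of 7.31, that overlapped the SW480 end peak, and a SW480 peak 1788 bp beyond with a fold of 3.11.

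IGF1R was the one receptor of the 8 with more peaks in SW480 than in HCT116. It lies on chromosome 15 (98648539 to 98964530), is 316 kb long and had 3 peaks in HCT116 and 8 in SW480. More SW480 than HCT116 peaks were found at 8.07% of all protein-coding genes and at 21.9% of those over 300 kb, and 76 genes had a larger SW480 excess than the 5 at IGF1R. All 8 SW480 summits lay between 137.6 and 249.06 kb from the start, with folds from 2.50 to 4.52. The strongest, at 225 kb (98872801 to 98873951), had a −log10 q of 6.51 and no overlapping HCT116 peak. The HCT116 peak at 217 kb (98865469 to 98866006) had a fold of 4.95 at a −log10 q of 13.2, and no SW480 peak overlapped it. A site at 204 kb was shared, with folds of 3.73 in HCT116 and 2.50 in SW480.

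The peak before the IGF1R start straddled the 1 kb limit. In HCT116 (98647094 to 98648031) its summit was 904 bp before the start, with a fold of 4.21 at a −log10 q of 5.65. In SW480 (98646927 to 98648028) the overlapping summit was 1032 bp before it, so it was not counted, although its fold was 6.14 and its −log10 q 15.5. Both peaks end before the printed window begins, and both lie in IRAIN, a long noncoding RNA gene that overlaps the IGF1R start. Other peaks just past the limit were the HCT116 peak 1437 bp beyond ERBB2 (fold 4.22) and the SW480 peak 1583 bp beyond AXL (fold 4.48). Just inside it lay the SW480 peak 940 bp beyond AXL (fold 3.14).

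INSR, the insulin receptor gene on chromosome 19 (7112265 to 7294414, minus strand), had the highest fold and −log10 q of the 8 genes in HCT116. The summit lay 392 bp upstream of the start, with a fold of 7.26, a −log10 q of 21.4 and a pileup of 42 over 4.92. In SW480 the summit was 454 bp upstream, with a fold of 2.41, a −log10 q of 2.10 and a pileup of 25 over 9.77. Both lines also had a peak inside the gene, 95935 bp (HCT116) and 95976 bp (SW480) from the start, with summits 41 bp apart and folds of 4.45 in HCT116 and 3.70 in SW480. At that internal site 29 fragments overlapped the HCT116 summit and 36 the SW480 summit. HCT116 had one more peak, 94094 bp from the start, with a fold of 3.58. INSR and IGF1R, which encode closely related receptors, thus both had a site close to the start in both lines. The fold at that site was higher in HCT116 for INSR and higher in SW480 for IGF1R.

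EPHA2 had 5 peaks in HCT116 and none in SW480. The gene lies on chromosome 1 (16124337 to 16156069, minus strand) and is 31.7 kb long, so the HCT116 peaks amount to 14.8 per 100 kb, against an average of 1.96 for genes of 30 to 100 kb. The start peak (16154790 to 16156914) was 2125 bp wide, with its summit 228 bp upstream of the start, a fold of 4.56, a −log10 q of 9.88 and a pileup of 31 over 6.02. EPHA2-AS1, an antisense RNA gene, overlaps that summit. The other 4 summits lay 6.42 to 12.3 kb downstream of the start, with folds from 3.04 to 4.38. The nearest SW480 peak was 2851 bp upstream of the start, with a fold of 2.76 at a −log10 q of 3.58.

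At AXL, on chromosome 19 (41219223 to 41261766), both lines had a peak close to the downstream of its 2 RefSeq starts and none within 1 kb of the upstream one. The HCT116 summit was 399 bp before that downstream start, with a fold of 5.13, a −log10 q of 12.8 and a pileup of 35 over 6.02. The SW480 summit was 683 bp before it, with a fold of 3.12, a −log10 q of 9.58 and a pileup of 56 over 17.3. HCT116 had a second peak, 4385 bp from the upstream start, at a fold of 2.51. The second SW480 peak, beyond the upper end, lies at the start of HNRNPUL1, a nuclear RNA-binding protein gene, and overlaps a HCT116 peak whose summit is 2582 bp beyond AXL (fold 9.30).

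Most of the 8 genes thus had a start-proximal peak in HCT116, and fewer had it in SW480. Within 1 kb of either gene end, 6 of the 8 genes had a peak in HCT116 and 4 in SW480, beside 44.0% (HCT116) and 22.1% (SW480) of all protein-coding genes. The SW480 count includes AXL, whose end peak lies at the start of HNRNPUL1. With a −log10 q of at least 5 the SW480 count was 2. With a distance of 5 kb in place of 1 kb, the end counts were 8 in HCT116 and 6 in SW480. Counting RefSeq starts instead, AXL, EPHA2, ERBB2, IGF1R, INSR and MET had one in HCT116, and AXL, ERBB2 and INSR in SW480, out of 7 genes with an entry. The share of protein-coding genes with such a start was 47.7% in HCT116 and 25.1% in SW480. EGFR had none by either count.

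**Figure D4:**
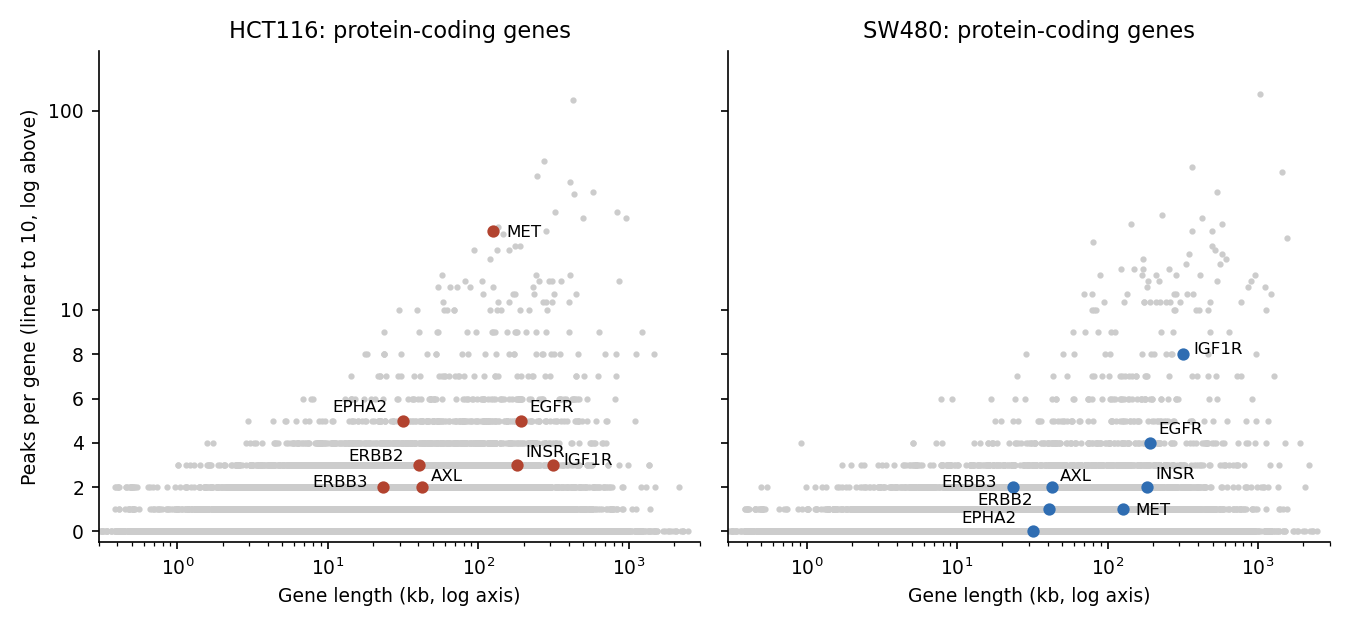
Peaks per protein-coding gene (y axis, linear to 10 and logarithmic above) against gene length (x axis, kb, log axis) in HCT116 (left) and SW480 (right); grey points are the 19970 genes and coloured points the 8 receptors. MET, at 126 kb and 25 peaks, is the shortest gene with 25 or more peaks in HCT116 and has 1 peak in SW480, while IGF1R, at 316 kb, has 3 in HCT116 and 8 in SW480.

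The lines shared 9 sites at 6 of the 8 genes. Of the HCT116 peaks, 9 of 48 overlapped a SW480 peak (18.8%, 95% Wilson interval 10.2 to 31.9), beside 24.2% of the whole HCT116 list. Of the SW480 peaks, 10 of 20 overlapped a HCT116 peak (50%, 29.9 to 70.1), beside 49.1% of the list. Of these 10, 8 paired with a HCT116 peak of the same gene, and the end peaks of ERBB3 and AXL overlapped a HCT116 peak past the 1 kb limit. The ninth HCT116 site, before the IGF1R start, paired with the SW480 peak 1032 bp out. Without MET the counts were 9 of 23 (39.1%) in HCT116 and 10 of 19 (52.6%) in SW480. At the 9 sites the local background was higher in SW480 each time. The summit pileup was higher in HCT116 at 3 sites and in SW480 at 6, and the fold was higher in HCT116 at 6 and in SW480 at 3. Pileups were not scaled to library depth. At 5 HCT116 peaks and 4 SW480 peaks the summits of the lines were at most 250 bp apart, and when at least 50% of both regions had to overlap, 2 HCT116 and 1 SW480 peaks were shared.

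A list of the other 50 receptor tyrosine kinase genes was counted by the same rule. Of these, 17 had a peak in HCT116 (34.0%) and 5 in SW480 (10.0%), and 8 in HCT116 and 0 in SW480 had one within 1 kb of an end. Each share is below that of all protein-coding genes, which was 52.3% in HCT116 and 29.8% in SW480 for any peak and 44.0% in HCT116 and 22.1% in SW480 for an end peak. These 50 are the receptors left once the 8, chosen by their peak counts, were taken out. Their shares are thus low in part by construction, and nothing is read from that difference. The folds given from here on belong to the peak of highest −log10 q of each gene. In HCT116 the highest −log10 q belonged to MST1R, the MET-related receptor for macrophage-stimulating protein, whose end peak had a fold of 6.78 at a −log10 q of 22.3, and which had no SW480 peak. AATK followed at a fold of 5.86 and MERTK, a relative of AXL, at 5.06, also without a SW480 peak. In SW480 the highest were ALK at a fold of 4.25, EPHA4 at 4.13 and ROR1 at 3.93, all from peaks inside the gene. ALK had 7 SW480 peaks and no HCT116 peak, and EPHA4 had 1 in HCT116 and 6 in SW480. RYK, with 4, had the most HCT116 peaks among these 50 genes, against 25 at MET.

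**Figure D5:**
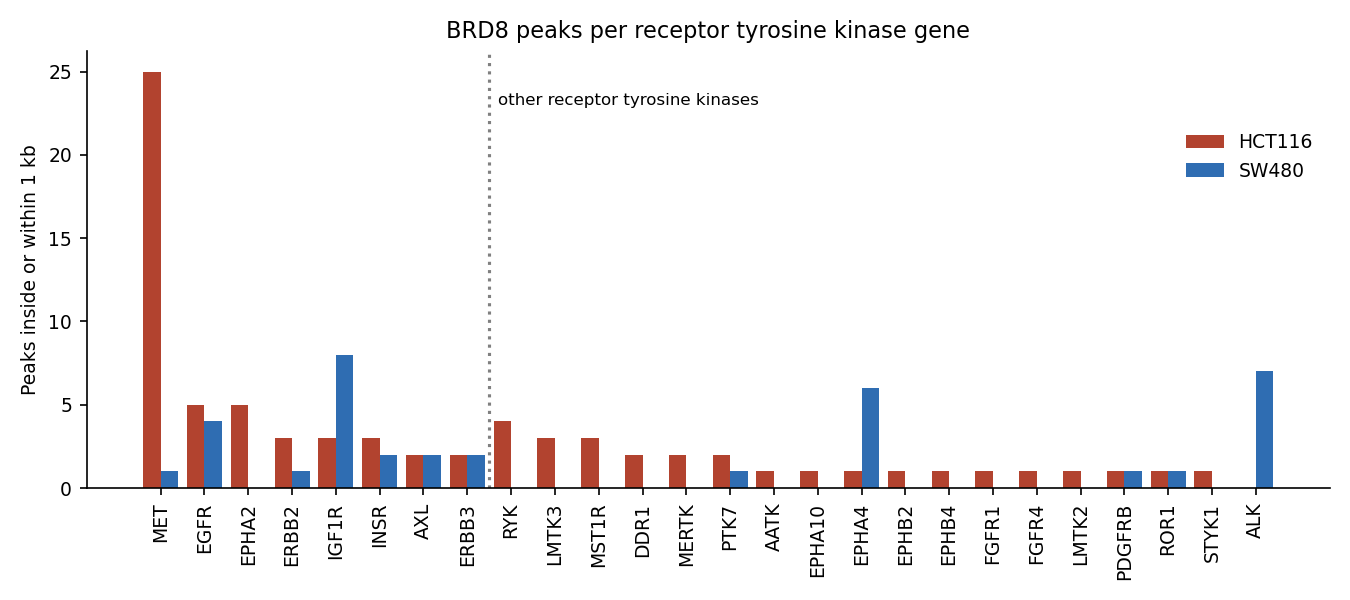
Number of BRD8 peaks inside or within 1 kb of each receptor tyrosine kinase gene that had any, HCT116 bars left of SW480 bars, with the 8 receptors described here left of the dotted line. MET stands at 25 in HCT116 and 1 in SW480, and IGF1R, EPHA4 and ALK have the taller SW480 bars, at 8, 6 and 7.

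The genes around these receptors in the pathway were counted by role. Of 20 ligand genes, 12 had a peak in HCT116 and 5 in SW480, near the 52.3% (HCT116) and 29.8% (SW480) of all protein-coding genes. EFNA1, an ephrin bound by EPHA2, had a fold of 6.96 in HCT116, followed by EFNA3 at 6.53 and GAS6, the AXL ligand, at 5.08. The EFNA1 summit lay 588 bp beyond the upper end of the gene. In SW480 the leading genes were EFNA5 at 4.33, HGF at 3.93 and TGFA, an EGFR ligand, at 3.74. HGF, which encodes the MET ligand, had 0 peaks in HCT116 and 3 in SW480. It lies on chromosome 7, which held 4.99% of the HCT116 list and 14.7% of the SW480 list. Its SW480 fold of 3.93 came from a pileup of 19 over 4.09, the lowest background of that list. Of 30 adaptor and effector genes, 24 had a peak in HCT116, beside 52.3% of all protein-coding genes, and 10 (33.3%) in SW480, near the 29.8% of all. SHC1, an adaptor of EGFR, had a fold of 7.42 in HCT116 and 4.16 in SW480, and NRAS, a RAS protein, had 6.31 in HCT116 and 4.57 in SW480. PIK3R1, the regulatory subunit of phosphatidylinositol 3-kinase, had 4.13 in SW480.

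Of 24 genes listed here as negative regulators of receptor signalling, 19 had a peak in HCT116 (79.2%) and 10 in SW480 (41.7%). Of all protein-coding genes, 52.3% had a peak in HCT116 and 29.8% in SW480. LRIG3, a membrane protein of the LRIG family, had a fold of 9.06 in HCT116 and SPRED1, an inhibitor of the RAS pathway, 8.71. Neither had a SW480 peak by the 1 kb rule, but a SW480 peak overlapped that SPRED1 peak and none overlapped that of LRIG3. PTPN2, a tyrosine phosphatase, had 6.34 in HCT116 and 5.80 in SW480. STAM, an endosomal sorting protein, had a fold of 6.04 in SW480, and PTPN1, which dephosphorylates the insulin receptor, 4.76. PTPN1 had 4 peaks in HCT116 and 6 in SW480. Of 10 colon epithelial marker genes, 7 had a peak in HCT116 and 1 in SW480, above 52.3% of all protein-coding genes in HCT116 and below 29.8% in SW480, so the SW480 list does not mark its tissue by these genes. None of 3 blood genes had a peak in either line. By −log10 q, EPCAM led the HCT116 epithelial genes at a fold of 4.91, followed by KRT8 at 4.76 and CLDN7 at 3.45, and KRT8 was the SW480 one at 3.20. Of 5 mesenchymal genes, 4 (80%) had a peak in HCT116 and 2 (40%) in SW480. Both shares are above those of all protein-coding genes and of the epithelial genes, 70% in HCT116 and 10% in SW480. The SW480 share rests on COL1A2 and VIM alone. COL1A2 lies on chromosome 7, which held 14.7% of the SW480 list and 4.99% of the HCT116 list. The SW480 peak of VIM had a −log10 q of 1.97. By these counts neither list sets the epithelial genes apart from the mesenchymal ones. The mesenchymal genes were led by VIM at a fold of 5.55 in HCT116 and COL1A2 at 3.07 in SW480, beside VIM at 2.45. CDH1, VIL1 and KRT20 had no peak in either line, and a peak list does not measure expression.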

How the data were processed

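BRD8 ChIP-seq peak lists of HCT116 and SW480 cells were analysed, 1 per line. Per the labels' protocols, cells were fixed in 1% formaldehyde for 10 minutes and chromatin was cut with micrococcal nuclease. Per the submitters' processing notes, Trimmomatic 0.33, Bowtie2 2.4.1, MACS2 and deepTools were used with GRCh38; no source used here gives filters or duplicate handling. The peak names in the deposited lists give 1 call per library at a q of 0.05. The deposited fold is a ratio of summit signal to local background, after adding 1 to both. At that summit the authors also gave the −log10 of the p-value and of the q-value. The deposited score was not used. Each deposited summit offset gave the summit position.

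Pileup and background were solved from fold and p over whole-number pileups, to 0.0001 of p, for 99.99% of HCT116 and 99.98% of SW480 peaks, and the solver was tested on simulated peaks. Depth is unknown beyond that. Genes, ends and starts came from RefSeq tables of GRCh38.p14, which match the files' build and give no exons. Overlap needed 1 bp. Chromosome Y and other contigs were left out (9 HCT116 and 72 SW480 peaks). Intervals are Wilson intervals (statsmodels 0.14.6) and cover counting error. No test between lines was made.

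The 8 genes, the gene lists and the alternatives were chosen with earlier results of these data known. Named genes were the 8 receptors, the genes of the MET window with a peak, the 3 members of highest −log10 q per line of each other list, and the 3 genes nearest MET. One gene that this rule names is not reported here. VMP1, PCDH7, RYK, the ends of PGAP3, PA2G4, HNRNPUL1, IRAIN and EPHA2-AS1, and the markers without a peak were named after their values were seen. Alternatives covered the q threshold, equal peak numbers, placement by region, the distance to genes and the overlap rule; counting from RefSeq starts was added after the data were seen.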

Additional observations from a re-analysis of the deposited data

How the results depend on the processing

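Of 62 values under alternative settings, 50 stayed within 1.5 times the reported count. With a −log10 q of at least 5, peaks at the 8 genes numbered 19 in HCT116 and 9 in SW480, the MET window held 32 in HCT116 and 8 in SW480, and 2 genes had a SW480 end peak. With 12874 peaks in each list, the HCT116 counts were 20 at the 8 genes and 37 in the window, by construction from fewer peaks, and the SW480 counts are those reported. With summits placed strictly between the gene ends, 5 SW480 peaks at the genes overlapped a HCT116 peak. When at least 50% of both regions had to overlap, 2 HCT116 and 1 SW480 peaks were shared, and with summits within 250 bp, 5 HCT116 and 4 SW480 peaks. The number of genes with a peak stayed at 8 in HCT116 under each setting and ran from 5 to 8 in SW480. No paired analysis was possible because each line has 1 ChIP library. With no replicate and no read totals, weak peaks near the q threshold are the least certain values here. Counting from RefSeq starts, chosen after the data were seen, gave 6 genes in HCT116 and 3 in SW480.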
